A study of Homo sapiens with 4 samples.

Results

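The transcripts described here are those of 9 genes, the 5 genes of the exon junction complex core (EIF4A3, MAGOH, MAGOHB, RBM8A and CASC3) and 4 RNA-binding proteins that act on the formation of circular RNAs (QKI, ADAR, DHX9 and HNRNPL). They were chosen by name from the 32955 genes of the expression table, and all 9 were listed and passed the filter on low values. RNA-seq was performed on 4 libraries of MDA-MB-231 cells, an estrogen receptor-negative line of human breast cancer, grown in DMEM with fetal bovine serum. A negative control oligonucleotide (mimic NC) had been transfected for 2 libraries and a miR-217 mimic for the other 2, an RNA duplex made to stand in for the microRNA. No gene was deleted, silenced or overexpressed in any of the 4 libraries, so they hold no perturbation of EIF4A3. The study examined EIF4A3 as a factor upstream of circ_0042881, a circular RNA made from exons of NF1, and miR-217 as a microRNA downstream of it. Of the 9 genes, the study tested only EIF4A3 as a regulator of that circular RNA. The comparison of the groups here asks whether the transcripts of the 9 genes changed in amount when miR-217 was supplied.

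The exon junction complex is laid down on spliced mRNA just upstream of the junction between joined exons. EIF4A3, an RNA helicase of the DEAD-box family, grips the RNA, the heterodimer of a MAGOH protein and RBM8A (also called Y14) locks it there, and CASC3 (also called MLN51 or Barentsz) binds the assembled complex. The complex guides splicing, export, translation and nonsense-mediated decay of the mRNA. Circular RNAs arise when a downstream splice site joins an upstream one, which is called back-splicing. QKI binds introns on both sides of such exons and brings them together, ADAR edits and DHX9 unwinds the paired repeats that do the same, and HNRNPL is a splicing factor that binds CA-rich RNA.

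The deposited values were RPKM, read counts scaled to gene length and to the library total. The reads recovered from them summed to between 32635814 and 57933183 per library, fewest in miR-217 mimic replicate 2. Each of the 9 genes had between 2625 reads (QKI in that library) and 17074 reads (DHX9 in mimic NC replicate 1), and so none of them was limited by a low count. In both groups replicate 2 had fewer reads than replicate 1, 47374957 against 57933183 with mimic NC and 32635814 against 53356283 with the mimic. Its mitochondrial share of reads was higher, 3.97% against 3.56% and 4.78% against 3.58%. The part of depth in the differences was not tested. The cells carried the labelled line's mesenchymal markers, with all 5 expressed and summing to 75.6 to 77.2 RPKM with mimic NC and 78.5 to 92.7 RPKM with miR-217 mimic. Of 9 luminal markers 7 were listed, summing to 7.79 to 7.94 RPKM with mimic NC and 9.20 to 10.2 RPKM with the mimic, mostly from EPCAM (3.90 to 7.41 RPKM) and ERBB3 (1.49 to 2.77 RPKM), whereas ESR1 was at 0.0756 RPKM or less and PGR and TFF1 had no row. The part of these markers in the differences was not tested. CDKN2A, whose deletion is often listed among the features of MDA-MB-231 cells, was measured between 10.5 and 13.2 RPKM. Along the first principal component, with 71.3% of the variance, the libraries of each group parted by replicate number. What this number stands for is not stated, nor that replicates were separate cultures, so p-values measure only the spread between these libraries, and for the 9 genes the difference with the mimic is also given within each number. In bulk RNA, fewer cells of a type and less RNA per cell cannot be told apart.

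The sequence of the supplied microRNA is shown because it defines the sites at which it could bind the 9 transcripts. Mature hsa-miR-217-5p (RefSeq, GRCh38.p14, chr2:55983020-55983042, minus strand) has its seed, bases 2 to 8, in capitals.
hsa-miR-217-5p: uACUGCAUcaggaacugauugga

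Matches were searched on the transcript strand in the longest 3'UTR of each gene in GENCODE 29 as ATGCAGT (the complement of the seed) and as TGCAGTA (the complement of bases 2 to 7 followed by an A). Both motifs overlap by 6 bases, and where they coincide they form the octamer ATGCAGTA. Among 9913 tested genes with a 3'UTR, 14.5% held ATGCAGT, 13.2% held TGCAGTA and 3.67% held the octamer. The full seed match ATGCAGT was found in 0 of the 9 genes. The shorter match TGCAGTA occurred once each in MAGOHB, RBM8A and CASC3 and 3 times in QKI, and neither motif was in the 3'UTR of EIF4A3 (276 bases), MAGOH, ADAR, DHX9 or HNRNPL. The 30-base windows around the matches of MAGOHB, CASC3 and QKI are shown with the match in capitals, each in the last exon of its transcript, so that the values of these genes can be read beside them.
MAGOHB, chr12:10604673-10604702, minus strand: cttgatgattgTGCAGTAtgaaatcgtatt
CASC3, chr17:40171682-40171711, plus strand: attcctattacTGCAGTAcatacgtctgcc
QKI, chr6:163573602-163573631, plus strand: gccaattgtttTGCAGTActttattatatt
QKI, chr6:163574025-163574054, plus strand: gtgggtgtaggTGCAGTAgagatgggaaca
QKI, chr6:163575594-163575623, plus strand: atacgcaccagTGCAGTAgctccaggtgta

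NF1, the host gene of circ_0042881, held ATGCAGT at 2 places in its 3'UTR of 3522 bases, once within the octamer. A match is a description of the letters in these windows, not a measured binding site.
NF1, chr17:31376846-31376875, plus strand: cccagatggagATGCAGTtcagtagatttg
NF1, chr17:31377175-31377204, plus strand: aattttttttaATGCAGTAtattcacctgt

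All 9 genes were expressed, from 4.49 ± 0.308 RPKM for QKI to 86.5 ± 7.19 RPKM for MAGOH (mean ± SD, n = 4 libraries). Within the exon junction complex core, MAGOH stood highest, CASC3 at 34.6 ± 2.02, RBM8A at 34.0 ± 4.77 and MAGOHB at 29.6 ± 5.22 RPKM followed, and EIF4A3 was lowest at 22.6 ± 1.36 RPKM. Among the circRNA regulators, DHX9 at 50.1 ± 4.74 RPKM and ADAR at 26.4 ± 2.32 RPKM were above HNRNPL at 17.1 ± 2.30 RPKM, and QKI was lowest. In the order of mean levels, CASC3, RBM8A and MAGOHB each overlapped their next lower neighbour in range, whereas MAGOH over DHX9, DHX9 over CASC3, ADAR over EIF4A3, EIF4A3 over HNRNPL and HNRNPL over QKI held in all 4 libraries without overlap of their ranges. EIF4A3 ranked 2170th of the 13871 tested genes and QKI 7424th.

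The order depended on the length that the reads were divided by. The table gives each gene the summed length of all its annotated exons, which for EIF4A3 was 4967 bases, 2.86 times the 1734 bases of its principal transcript in GENCODE 29, and for RBM8A 1.13 times. Divided by the principal transcript's length instead, a setting chosen after seeing the data, EIF4A3 moved from 7th to 3rd of the 9 genes at 64.8 ± 3.91 RPKM on that length, RBM8A moved from 4th to 7th at 38.3 ± 5.37, and MAGOH stayed first at 167 ± 13.9 and QKI last at 8.24 ± 0.566.

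**Figure D1:**
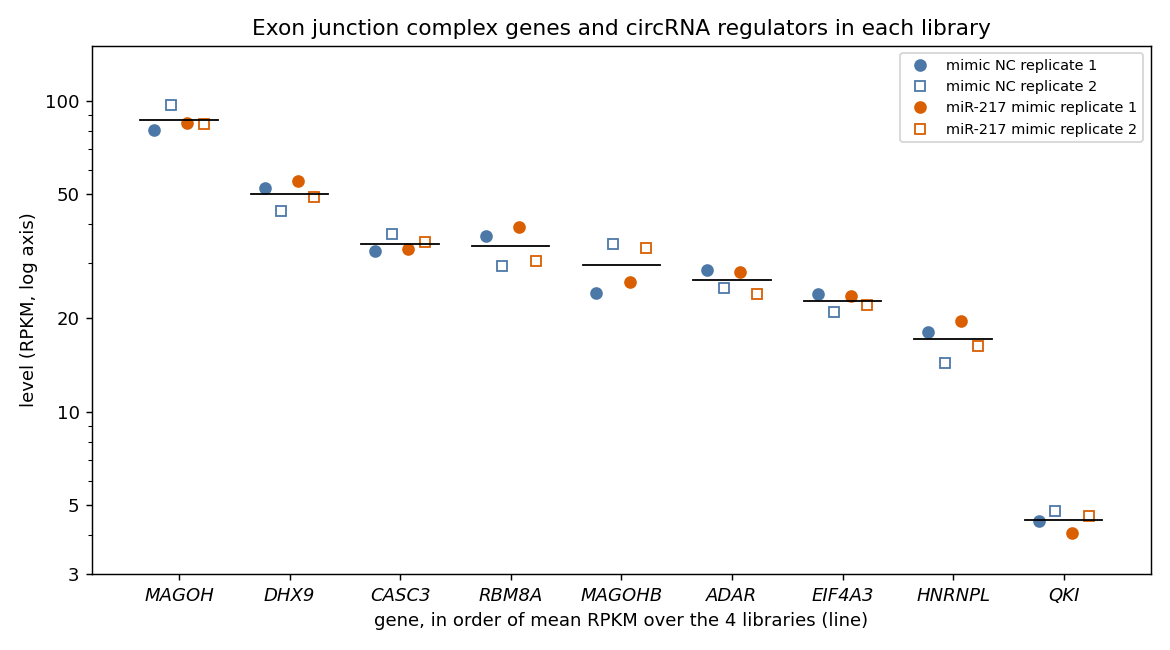
Level of each gene in RPKM (log axis) in the 4 libraries, with mimic NC in blue, miR-217 mimic in orange, circles for replicate number 1 and open squares for number 2, and a line at the mean of the 4 libraries. The genes run from MAGOH at 86.5 to QKI at 4.49 RPKM, and in every gene but MAGOH the circles and squares do not overlap, while blue and orange overlap in all 9.

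EIF4A3 (chr17:80135214-80147183, minus strand) was at 23.9 and 20.9 RPKM in mimic NC replicates 1 and 2 and at 23.5 and 22.1 RPKM in miR-217 mimic replicates 1 and 2. Both miR-217 mimic libraries lay between the 2 mimic NC libraries. The group means were 22.4 ± 2.12 and 22.8 ± 0.983 RPKM (SD, n = 2), and the difference in log2(RPKM + 1) was 0.02 (SE 0.13, 95% interval -0.32 to 0.36, limma, Benjamini-Hochberg adjusted p = 1.00 over 13871 genes). Within number 1 the mimic library was lower by -0.03 and within number 2 it was higher by 0.07 on that scale. The other helicases of its family, EIF4A1 and EIF4A2, unwind mRNA at the start of translation. EIF4A1 stood at 39.7 RPKM in both mimic NC libraries and at 44.3 and 51.6 RPKM with miR-217 mimic, a difference of 0.26 (SE 0.14, unadjusted p = 0.114, adjusted p = 1.00, limma), with both mimic libraries above both controls. EIF4A2 differed by -0.06 (SE 0.12), with overlapping libraries. The ratio of EIF4A3 to EIF4A1 was thus 0.603 and 0.527 in the controls and 0.530 and 0.428 in the mimic libraries, and these ranges overlapped.

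For the transcripts of the proteins that lock EIF4A3 onto RNA, the group means differed by less than the 2 mimic NC libraries did from each other. MAGOH (chr1:53226892-53238610, minus strand) was at 80.2 and 96.8 RPKM with mimic NC and at 84.7 and 84.1 RPKM with miR-217 mimic, a difference of -0.06 (SE 0.15, interval -0.45 to 0.33). The mimic libraries again lay between the controls, and the difference was 0.08 within number 1 and -0.20 within number 2. MAGOHB (chr12:10604190-10613623, minus strand) was at 24.1 and 34.5 RPKM with mimic NC and at 26.1 and 33.5 RPKM with the mimic, a difference of 0.03 (SE 0.23, interval -0.56 to 0.63). In each group the library numbered 2 was the higher one, and the mimic differed by 0.11 within number 1 and -0.04 within number 2. RBM8A (chr1:145917714-145927678, minus strand) was at 36.6 and 29.4 RPKM with mimic NC and at 39.3 and 30.6 RPKM with the mimic, a difference of 0.08 (SE 0.19, interval -0.42 to 0.57). Here the library numbered 2 was the lower one in each group, and the mimic library was higher by 0.10 and 0.06 within numbers 1 and 2. CASC3 (chr17:40140318-40172183, plus strand), the clamp-binding subunit, was at 32.8 and 37.2 RPKM with mimic NC and at 33.4 and 35.2 RPKM with the mimic, a difference of -0.03 (SE 0.13, interval -0.37 to 0.31). Both mimic libraries lay between the controls, with 0.03 within number 1 and -0.08 within number 2.

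Among the circRNA regulators, HNRNPL gave the highest difference of the 9 genes and QKI the lowest. QKI (chr6:163414000-163578596, plus strand) was at 4.45 and 4.81 RPKM with mimic NC and at 4.09 and 4.63 RPKM with miR-217 mimic, a difference of -0.07 (SE 0.12, interval -0.39 to 0.25). ADAR (chr1:154582062-154627999, minus strand) was at 28.6 and 24.9 RPKM with mimic NC and at 28.2 and 24.0 RPKM with the mimic, a difference of -0.04 (SE 0.15, interval -0.42 to 0.35). In both genes the ranges of the groups overlapped, with -0.10 and -0.04 within numbers 1 and 2 for QKI and -0.02 and -0.05 for ADAR. DHX9 (chr1:182839369-182887751, plus strand) was at 52.2 and 44.2 RPKM with mimic NC and at 55.2 and 48.8 RPKM with the mimic, a difference of 0.11 (SE 0.15, interval -0.28 to 0.50). HNRNPL (chr19:38836388-38852347, minus strand) was at 18.1 and 14.3 RPKM with mimic NC and at 19.6 and 16.2 RPKM with the mimic, a difference of 0.14 (SE 0.17, interval -0.31 to 0.59, unadjusted p = 0.451). For DHX9 and HNRNPL the mimic library was above the control within each number, by 0.08 and 0.14 for DHX9 and by 0.11 and 0.17 for HNRNPL, while the groups still overlapped.

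Across the 9 genes, 0 had an unadjusted p under 0.05 for miR-217 mimic against mimic NC in limma, compared with 1.19% of all genes tested (165 of 13871). At a Benjamini-Hochberg adjusted p under 0.05 the counts were 0 of 9 and 0 of 13871 (0%), and limma voom on the recovered reads gave 82 genes at an unadjusted p under 0.05 and 0 after adjustment. With the mimic libraries beyond both controls there were also 0 of the 9 genes, against 23.2% of all genes tested. The median difference of the 9 was 0.02, beside -0.02 for all genes tested. Within the numbers, 3 genes (RBM8A, DHX9 and HNRNPL) were higher with the mimic in both, 2 (QKI and ADAR) were lower in both, and 4 changed sign between the numbers. Of the 4 genes with a TGCAGTA match, MAGOHB and RBM8A had positive and CASC3 and QKI negative differences, between -0.07 and 0.08. The 95% intervals were widest in MAGOHB, from -0.56 to 0.63, and narrowest in QKI, from -0.39 to 0.25. For each gene this fit did not tell the values inside its interval apart. It has no term for the replicate number, so the spread between the numbers enters these intervals. With that term the SE was 0.07 in place of 0.23 for MAGOHB and 0.08 in place of 0.12 for QKI. For HNRNPL it was 0.07 in place of 0.17 (unadjusted p = 0.0998, limma), and again 0 of the 9 genes had an unadjusted p under 0.05.

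NF1 itself was near the lower limit of the test, at 1.03 and 1.06 RPKM with mimic NC and at 0.921 and 1.00 RPKM with miR-217 mimic. Both mimic libraries lay below both controls by a narrow margin, and the difference was -0.06 (SE 0.12, unadjusted p = 0.653, limma). At this level log2(RPKM + 1) understates a change. The difference was -0.10 with a pseudocount of 0.1 (unadjusted p = 0.671, limma) and -0.12 with limma voom on the recovered reads (unadjusted p = 0.422). These values count reads on all exons of NF1 (chr17:31094927-31382116, plus strand) and do not separate circular from linear transcripts, which were not analysed here.

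**Figure D2:**
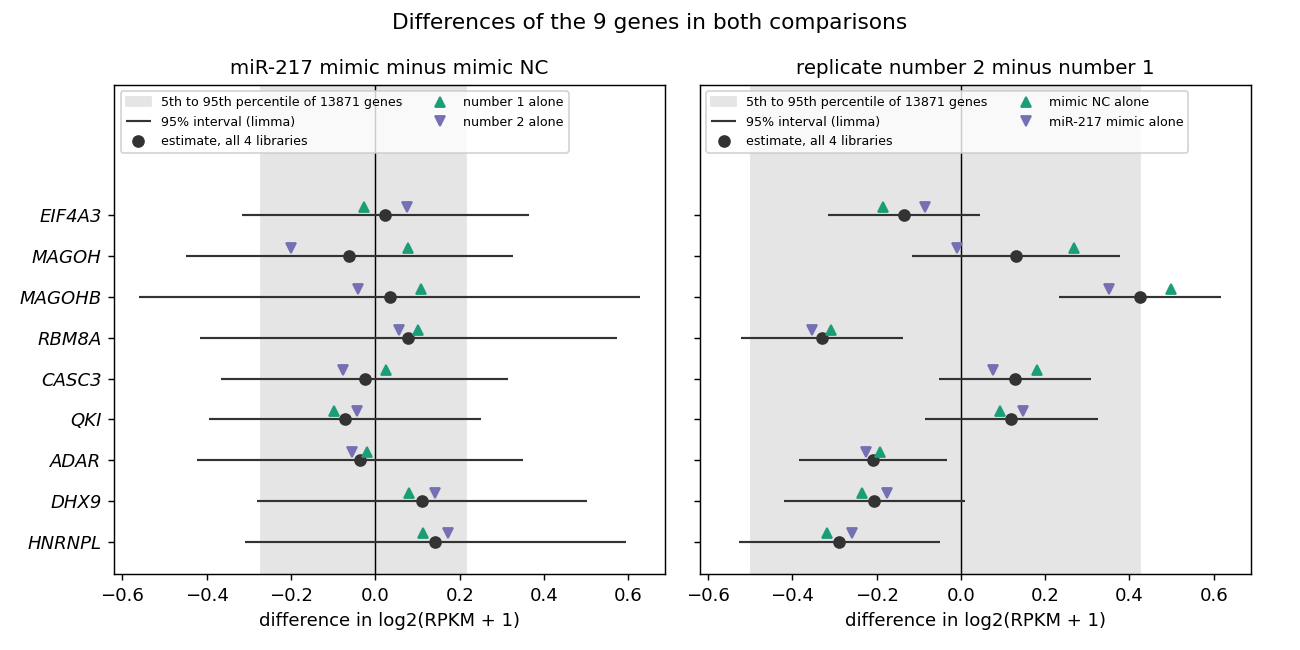
Difference in log2(RPKM + 1) of the 9 genes for miR-217 mimic minus mimic NC (left) and for replicate number 2 minus number 1 (right), with dots for the estimate over 4 libraries, lines for the 95% limma interval, triangles for the difference within each number or group, and a grey band from the 5th to the 95th percentile of 13871 genes. On the left all 9 intervals cross 0, and on the right those of MAGOHB, RBM8A, ADAR and HNRNPL do not.

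In all 9 genes the difference between the libraries numbered 2 and those numbered 1 was larger in size than the difference between the groups. Over all 13871 genes tested the spread was also wider between the numbers. Its 5th to 95th percentiles ran from -0.50 to 0.42, compared with -0.27 to 0.22 with the mimic. The share of all genes with the larger difference between the numbers was not computed, so whether the count is particular to the 9 cannot be told. The number is a label of the libraries and no condition of the study, and its values are given because they set the spread against which the mimic was tested. MAGOHB was at 25.1 ± 1.38 RPKM in the libraries numbered 1 and at 34.0 ± 0.690 RPKM in those numbered 2 (SD, n = 2), which was 35.5% higher (log2 difference 0.42, SE 0.07, adjusted p = 0.044, limma). It was higher by 0.50 within mimic NC and by 0.35 within miR-217 mimic. Without mimic NC replicate 1 the difference was 0.37 with an adjusted p of 0.351, and without miR-217 mimic replicate 1 it was 0.48 with an adjusted p of 0.243 (limma), where the calls over all genes fell as well. The adjusted p of MAGOHB was 0.119 without the filter on low values and 0.184 without moderation of the variance (limma). RBM8A, whose protein pairs with that of MAGOH or MAGOHB, was at 38.0 ± 1.91 RPKM in number 1 and at 30.01 ± 0.845 RPKM in number 2, which was lower by -0.33 (SE 0.07, unadjusted p = 0.007, adjusted p = 0.065, limma). Its difference was -0.31 within mimic NC and -0.35 within the mimic. MAGOHB and RBM8A thus lay apart in opposite directions, and MAGOHB over RBM8A was 0.659 and 0.663 in the libraries numbered 1 and 1.17 and 1.10 in those numbered 2.

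Of the other core genes, EIF4A3 was at 23.9 and 23.5 RPKM in number 1 and at 20.9 and 22.1 RPKM in number 2, a difference of -0.13 (SE 0.07, unadjusted p = 0.112, limma) that did not pass the test. CASC3 gave 0.13 (SE 0.07) with both libraries numbered 2 above those numbered 1. MAGOH gave 0.13 (SE 0.10), and its libraries overlapped, with 0.27 within mimic NC and -0.01 within miR-217 mimic. Among the regulators, HNRNPL was lower in number 2 by -0.29 (SE 0.09, unadjusted p = 0.027, adjusted p = 0.119, limma), ADAR by -0.21 (SE 0.07, unadjusted p = 0.028, adjusted p = 0.121) and DHX9 by -0.21 (SE 0.08, unadjusted p = 0.058). For these 3 genes both libraries numbered 2 lay below both numbered 1. QKI alone of the regulators had a positive difference, 0.12 (SE 0.08), and its ranges were also apart.

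Counted together, 1 of the 9 genes was higher and 3 were lower in number 2 at an unadjusted p under 0.05, beside 12.8% higher and 17.4% lower of all genes tested. After Benjamini-Hochberg adjustment 1 was higher (background 3.34%) and 0 were lower (background 3.71%, 514 genes). The ranges did not overlap for 3 higher genes (background 26.9%) and 5 lower genes (background 35.5%). The median difference of the 9 was -0.13, beside -0.04 for all genes tested. The count of genes past the adjusted threshold was 977, and it was 9 without mimic NC replicate 1, 13 without miR-217 mimic replicate 1, 3931 without mimic NC replicate 2 and 1761 without miR-217 mimic replicate 2. Among the 9 genes the corresponding counts were 0, 0, 2 and 3.

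MAGOH and MAGOHB are paralogs, and reads could be shared between them. Their principal coding sequences in GENCODE 29, 441 and 447 bases, were identical at 382 of 441 aligned bases (86.6%), while the proteins translated from them were identical at 145 of 146 aligned residues. The longest identical run was 38 bases, so no 50-base stretch of the coding sequences was the same in both, and 1.03% of the 50-base stretches of MAGOH and 1.10% of those of MAGOHB occurred in any other gene, most often in MAGOH2P and MAGOH3P. The last 60 coding bases, stop codon included, are shown on the transcript strand with the 6 differing bases in capitals. They hold an identical run of 38 bases, the longest length found, and a read inside that run cannot tell the genes apart.
MAGOH, exon 5, chr1:53227045-53227104, minus strand: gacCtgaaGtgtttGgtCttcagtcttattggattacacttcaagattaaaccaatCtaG
MAGOHB, exon 5, chr12:10606275-10606334, minus strand: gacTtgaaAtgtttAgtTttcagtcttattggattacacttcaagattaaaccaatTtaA

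MAGOHB made up 23.1% and 26.3% of the summed RPKM of both paralogs in mimic NC replicates 1 and 2 and 23.6% and 28.5% in miR-217 mimic replicates 1 and 2. The share was thus higher in both libraries numbered 2, by 4.05 percentage points, which gave an exact permutation p of 0.333, the smallest that 2 libraries against 2 can give (two-sided). Between the groups it differed by 1.32 points (exact permutation p = 0.667). In recovered reads, which favour the longer MAGOHB, the share was 49.97% and 54.2% in the controls, and 50.6% and 57.0% in the mimic libraries. The summed RPKM of the paralogs was 104 and 131 in the controls, 111 and 118 in the mimic libraries, and the mimic libraries lay between the controls.

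**Figure D3:**
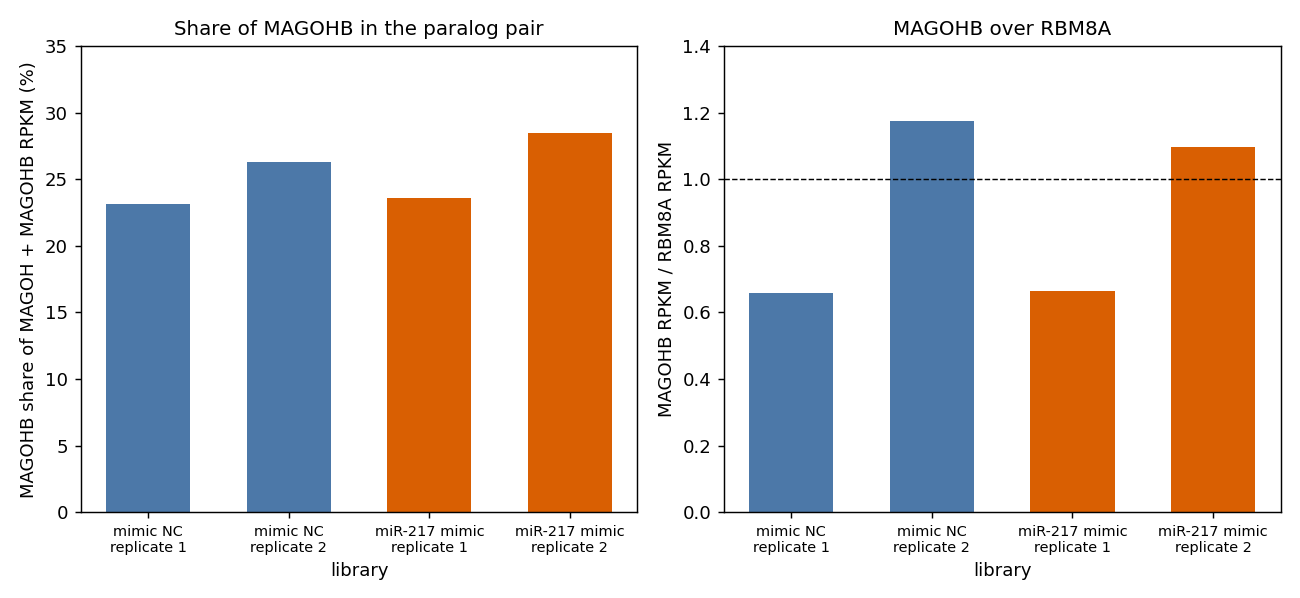
Share of MAGOHB in the summed RPKM of MAGOH and MAGOHB in percent (left) and MAGOHB RPKM over RBM8A RPKM (right, dashed line at 1), 1 bar per library, with mimic NC in blue and miR-217 mimic in orange. The bars of replicate number 2 are higher in both groups, at 26.3% and 28.5% on the left and 1.17 and 1.10 on the right.

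Other genes share exonic sequence or position with some of the 9, and the strand setting of the read counting is not given in the sources used here. Of the exonic bases of RBM8A, 25.0% overlapped genes on the opposite strand (CH17-270A2.2, GNRHR2 and RP11-315I20.1) and 5.27% of its 50-base stretches recurred elsewhere, most in RBM8B. For HNRNPL, 8.22% of exonic bases overlapped AC104534.3 on the same strand and 11.2% of the stretches recurred, most in AC008982.1. DHX9 shared 2.84% of its stretches, most with DHX9P1, and QKI shared 0%. The values of RBM8A and HNRNPL are uncertain for that reason, by an amount that shares of bases and stretches do not measure.

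The partners of the exon junction complex and the factors of nonsense-mediated decay, 19 genes, gave a median difference of 0.00 with miR-217 mimic, and 0 had an unadjusted p under 0.05 (background 1.19%). ALYREF, an mRNA export adaptor, was highest at 0.25 (SE 0.14), with both mimic libraries (37.6 and 34.9 RPKM) above the controls (32.9 and 28.0 RPKM). SAP18, a subunit of a complex at the edge of the junction complex, was lowest at -0.15 (SE 0.12). Neither passed the test.

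Between the numbers, 3 of the 19 were higher and 5 lower in number 2 at an unadjusted p under 0.05 (backgrounds 12.8% and 17.4%), with a median of -0.01. UPF3B, the decay factor that binds the exon junction complex directly, was at 122 and 119 RPKM in number 1 and at 160 and 173 RPKM in number 2, a difference of 0.47 (SE 0.08, adjusted p = 0.041, limma). SMG5, which recruits decay enzymes to phosphorylated UPF1, was at 16.4 and 15.9 RPKM in number 1 and at 21.3 and 21.1 RPKM in number 2, a difference of 0.38 (SE 0.07, adjusted p = 0.044). UPF3A, a paralog of UPF3B, gave 0.24 (adjusted p = 0.157). The 5 lower genes were UPF2 (-0.30), the adaptor between UPF1 and UPF3B, the splicing coactivators RNPS1 (-0.28) and SRRM1 (-0.28), PYM1 (-0.27), which takes the complex apart at the ribosome, and ACIN1 (-0.19), and none of the 5 passed the adjusted threshold. Leaving out 1 library each, the difference of UPF3B was 0.41 to 0.52 and that of SMG5 0.36 to 0.40. Both lost the adjusted call without mimic NC replicate 1 (adjusted p = 0.304 and 0.321) and without miR-217 mimic replicate 1 (0.299 and 0.324), as well as without the filter (0.123 and 0.117) and without moderation (0.180 and 0.145).

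A further 20 factors reported to affect back-splicing were listed, of which 17 passed the filter and ESRP1, RBM20 and NOVA2 did not. Their median difference with the mimic was 0.02, and 0 had an unadjusted p under 0.05 (background 1.19%). CDC40, a splicing step factor, was lowest at -0.15 (SE 0.11). Between the numbers the median was -0.05. At an unadjusted p under 0.05, 2 of the 17 were higher in number 2 (background 12.8%), MBNL1 (0.29) and RBM25 (0.30). Another 4 were lower (background 17.4%), PRPF8 (-0.27), ILF2 (-0.26), SRSF1 (-0.26) and HNRNPM (-0.24). Past the adjusted threshold there were 0 of the 17 (lowest adjusted p = 0.089, limma), beside 3.34% higher and 3.71% lower of all genes tested. MBNL1 binds its own pre-mRNA and promotes a circular RNA from it, SRSF1 is an SR protein, and PRPF8 lies at the catalytic centre of the spliceosome.

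Factors that export, modify or degrade circular RNAs, 13 genes, had a median of 0.00 with the mimic and 0 at an unadjusted p under 0.05 (background 1.19%). METTL3, the catalytic subunit of the m6A methyltransferase, was highest at 0.17 (SE 0.14) and G3BP2, a stress granule protein, lowest at -0.16 (SE 0.18). Between the numbers the median was -0.14, with 0 of 13 higher (background 12.8%) and 4 lower (background 17.4%) in number 2 at an unadjusted p under 0.05. Among these were DDX39A (-0.36), a helicase linked to the nuclear export of circular RNAs, G3BP2 (-0.32) and its paralog G3BP1 (-0.28). DDX39A was at 24.5 and 26.0 RPKM in number 1 and at 19.2 and 19.8 RPKM in number 2 (adjusted p = 0.053, limma). None of the 13 passed the adjusted threshold (backgrounds 3.34% higher and 3.71% lower).

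Interferon-induced genes were counted because a transfected RNA duplex can induce them and because one promoter of ADAR answers to interferon. Both groups were transfected and no library was untransfected. A response to transfection shared by the groups would therefore not show in their comparison. With miR-217 mimic 0 of the 8 tested genes had an unadjusted p under 0.05 (background 1.19%). Their median was -0.03, from ISG15 at -0.17 (SE 0.35) to DDX58, the RIG-I sensor, at 0.13 (SE 0.36). MX1 and OAS2 were below the filter. Between the numbers the median was 0.57, with 5 of 8 genes higher (background 12.8%) and 1 lower (background 17.4%) in number 2 at an unadjusted p under 0.05. IFIT2 was at 9.39 and 8.30 RPKM in number 1 and at 17.2 and 18.4 RPKM in number 2 (0.93, SE 0.09, adjusted p = 0.018, limma). IFIT3 (0.69, adjusted p = 0.041), IFIH1 (0.47, adjusted p = 0.046), DDX58 (0.71, adjusted p = 0.051) and ISG15 (0.67, adjusted p = 0.065) had the same sign, while OAS1 gave -0.25. Without mimic NC replicate 1 the adjusted p of IFIT2 was 0.104, that of IFIT3 0.227 and that of IFIH1 0.245, and without miR-217 mimic replicate 1 these were 0.113, 0.227 and 0.309, compared with 0.093, 0.132 and 0.132 without the filter and 0.174, 0.230 and 0.201 without moderation. ADAR was lower in number 2, opposite in sign to these 5 genes. The part of this list in the differences of the 9 genes was not tested.

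**Figure D4:**
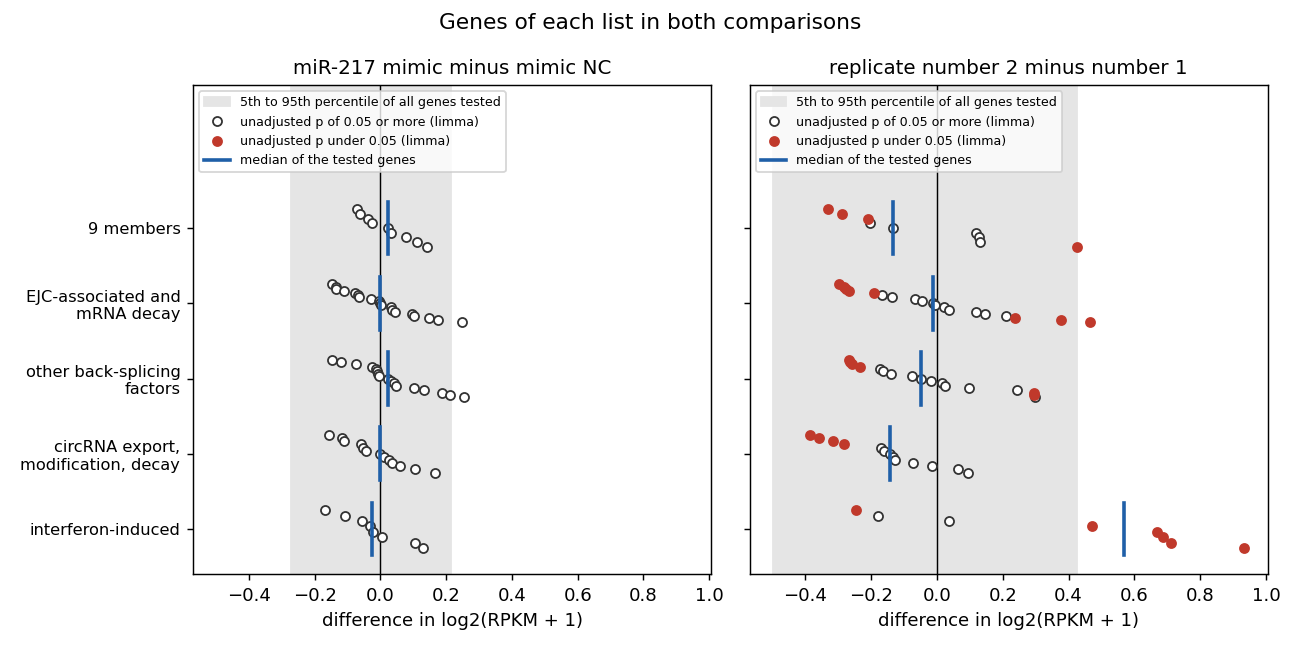
Difference in log2(RPKM + 1) of each tested gene in 5 lists for miR-217 mimic minus mimic NC (left) and for replicate number 2 minus number 1 (right), with red dots for an unadjusted limma p under 0.05, open dots for the others, a blue line at the list's median and a grey band from the 5th to the 95th percentile of all genes tested. No dot is red on the left, and on the right the interferon-induced list has its median at 0.57 while the other medians lie between -0.14 and -0.01.

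The genes whose pattern over the 4 libraries was most like that of EIF4A3, by Euclidean distance of log2(RPKM + 1) after centring each gene on its mean, were PLPP5 (distance 0.011), RP4-622L5.2 (0.012) and ASPSCR1 (0.016) among 13870 others. PLPP5 (1.91 to 2.32 RPKM) and ASPSCR1 (1.04 to 1.31 RPKM) were low genes, whose changes log2(RPKM + 1) understates. RP4-622L5.2 was at 21.2 and 18.3 RPKM with mimic NC and at 20.7 and 19.4 RPKM with miR-217 mimic, with the same order of libraries as EIF4A3. Among the other 8 genes described here, DHX9 (distance 0.113, rank 1314) and ADAR (0.117, rank 1410) were nearest, and MAGOHB was farthest (0.573, rank 12456). With 4 libraries this is a description of their order only.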

How the data were processed

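RNA was extracted with TRIzol from transfected MDA-MB-231 cells, and stranded mRNA libraries were prepared. The authors deposited RPKM for 32955 genes with their exon coordinates and lengths. The submitters' processing notes list Trimmomatic 0.36, Subread 1.5.1, featureCounts and hg38, without their roles, and the aligner and annotation release are not given in the sources used here. The deposited RPKM values gave whole reads (within 0.01) in 100% of cases. Group and replicate number of each library follow its sample label. The 9 genes and all lists were chosen with earlier results of these data known. Since the deposited unit was RPKM and no counts, log2(RPKM + 1) was tested with limma 3.58.1 in R 4.3.3 (lmFit, eBayes with trend, two-sided, without a term for the replicate) in 13871 genes whose mean RPKM reached 1, with Benjamini-Hochberg adjustment over all of them. The pseudocount understates changes of low genes. The text names the 9 genes, NF1, EIF4A1, EIF4A2, members of the other lists with an unadjusted p under 0.05 in either comparison or the highest or lowest difference with the mimic, and the 3 genes nearest EIF4A3, except for a few items that are not reported here. The fits were tested on simulated data. Coordinates are hg38 as in the table, whose spans matched GENCODE 29 for 8 of the 9 genes (not ADAR), and GENCODE 29 gave transcripts and UTRs. Sequences came from RefSeq (microRNA) and GENCODE 29. Other settings tried were a pseudocount of 0.1, no low-value filter, a filter at 5 RPKM, centring on medians, unmoderated variances, voom on recovered reads, the replicate number or group as a term, and leaving out each library. Figures were drawn with matplotlib 3.10.9 in Python 3.11.15.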

Additional observations from a re-analysis of the deposited data

How the results depend on the processing

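With the mimic, 0 of the 9 genes had an unadjusted p under 0.05 under any alternative run, and without 1 library each the 9 differences crossed 0, with ranges of -0.0686 to 0.116 for EIF4A3, -0.196 to 0.0726 for MAGOH, -0.215 to 0.283 for MAGOHB, -0.0984 to 0.254 for RBM8A, -0.115 to 0.0643 for CASC3, -0.145 to 0.00218 for QKI, -0.150 to 0.0758 for ADAR, -0.00731 to 0.228 for DHX9 and -0.0167 to 0.301 for HNRNPL. G3BP2 (-0.330 to 0.0162), DDX58 (-0.336 to 0.597) and ISG15 (-0.630 to 0.291) did so too. With median centring, CASC3 was at 0.000565 with and without the replicate block. The 165 genes at an unadjusted p under 0.05 became 877 without the filter, 48 at a mean RPKM of at least 5, 364 without moderation, 82 with voom and 93 to 866 without 1 library each. With the replicate block there were 1046, and, chosen after seeing the data, 1261 with voom and the block (1 after adjustment) and 1098 with centring and the block. With the block, limma gave an unadjusted p under 0.05 to 0 of the 9 genes and to EIF4A1 and ALYREF, of which neither passed adjustment. Deviations of same-numbered libraries from their group means correlated at 0.68 over genes, and with 2 numbers the labels do not establish a pairing.

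Between the numbers, the 4184 genes at an unadjusted p under 0.05 became 2474 at a mean RPKM of at least 5 and 1832 to 6037 without 1 library each. The 977 genes past adjustment became 3 without the filter, 0 without moderation (limma), 2262 with voom, 3280 with voom and the group as a term, 1529 with centring and the group as a term, and 9 to 3931 without 1 library each. Of the 9 genes, 1 passed adjustment, compared with 0 without the filter or without moderation, 2 at a mean RPKM of at least 5, 2 with voom, 3 with voom and the group as a term, and 0 to 3 without 1 library each, where 1 to 6 had an unadjusted p under 0.05. RBM8A passed with voom (adjusted p = 0.027) and at a mean RPKM of at least 5 (0.045). The cause of these shifts was not tested. The share of MAGOHB moved by 2.93 to 5.16 points between the numbers and by -1.15 to 3.80 points with the mimic without 1 library each. With 2 libraries a group, an exact test of 1 gene cannot fall below 0.333, and the smallest library limits genes with few reads.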
